A study of Sus scrofa with 16 samples.

Results

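Apolipoproteins are the protein components of lipoproteins, the particles that carry triglyceride and cholesterol in plasma. Liver and small intestine make most of them. APOB is the structural protein of very low density and low density lipoproteins, APOA1 and APOA2 are the main proteins of high density lipoproteins, APOC3 and APOA5 act on triglyceride clearance in opposite directions, APOA4 is an intestinal apolipoprotein of chylomicrons, APOE is a ligand of the low density lipoprotein receptor family that macrophages also make, APOM carries sphingosine 1-phosphate, and APOH is a phospholipid-binding plasma glycoprotein. In mammals APOA1, APOC3, APOA4 and APOA5 lie side by side on a chromosome, and here they were treated as 1 cluster.

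The 9 genes APOA1, APOA2, APOA4, APOA5, APOB, APOC3, APOE, APOH and APOM were chosen by name out of 19535 protein-coding genes (PCGs) with a promoter on chromosomes 1 to 18, X and Y. No measured value was used as a filter, but earlier results of these data were known when the genes were chosen. The study itself names APOA2, APOB and APOH among genes with liver-specific accessible promoters. Peaks were assigned to a gene where they overlapped its promoter, from 2.2 kb upstream to 500 bp downstream of a transcription start site (TSS), or its gene body with 5 kb on either side, which gave 6 loci of 186.8 kb in all. Chromatin accessibility had been profiled by ATAC-seq, in which a transposase tags open DNA, in 16 libraries from female crossbred domestic pigs. The labels give 8 groups of 2 replicates. Heart, kidney, lung, skeletal muscle, spleen and liver were labelled as taken on the birth day (day 0), where the study's methods give an age of 1 day, and liver also at 28 days (suckling) and at 180 days (adult). According to the methods of the study, each stage had a pair of full-sib Berkshire × Tibetan pigs, so the 6 newborn tissues came from the same animals. The labels give no treatment. Tissues other than liver were sampled at birth only, so age and tissue cannot be told apart when suckling or adult liver is set against them.

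Each group is represented by 1 consensus list that joins its replicates, and the 8 lists held between 57126 (muscle) and 141689 (suckling liver) peaks. They carry no read counts, and the read totals that the study lists for each library were not used here. Each peak has the −log10 p of each replicate. Because that value grows with depth, it was turned into a percentile within its list, in which 100 is the strongest peak. Replicates correlated with a Spearman rho of 0.514 to 0.769 across the peaks of a list. In newborn liver the median −log10 p was 24.8 in replicate 1 and 8.66 in replicate 2. Only 19.2% of the newborn liver peaks had an irreproducible discovery rate (IDR) of 0.05 or lower, against 50.4% in adult liver. Most marker promoters were called in the tissue they mark. Promoter peaks were called at 5 of 6 hepatocyte markers in newborn liver, at 6 in the suckling and adult lists, and at 1 or 2 in any other list. Of the 4 heart markers with an annotated promoter 4 had one in heart, and the same held for 4 of 5 kidney, 4 of 5 lung, 5 of 5 muscle and 5 of 5 spleen markers in their own lists. Some were called elsewhere, such as 3 of the 5 muscle markers in newborn liver and 3 in kidney, and SCGB1A1 of the lung list was called in newborn and adult liver and not in lung. A peak that is missing was not called, which does not show closed chromatin.

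Sequences of the regions on which the results turn are shown here. They come from the Sscrofa11.1 genome and run 5′ to 3′ along the strand of the gene. Capitals mark matches on either strand to short words of liver and core promoter factors. The FOXA word was TGTTTAC and the HNF1 word was GTTAAT. For HNF4 the word was CAAAGTCCA, with CAAAGTTCA taken as well. For CEBP it was TTGCNNAA, which takes in TTGCGCAA. The ONECUT word was ATCAATA and the nuclear receptor word was AGGTCA. The core promoter words were TATAAA for the TATA box, GGGCGG for SP1 and CCAAT for NF-Y. No matches overlapped in the sequences shown. The first 5 are the 200 bases before the annotated start of a member whose start was accessible in liver, and the last 3 are the 150 bases around the summit of a liver-only region.
APOA1, before the start, chr9:44218361-44218560, minus strand: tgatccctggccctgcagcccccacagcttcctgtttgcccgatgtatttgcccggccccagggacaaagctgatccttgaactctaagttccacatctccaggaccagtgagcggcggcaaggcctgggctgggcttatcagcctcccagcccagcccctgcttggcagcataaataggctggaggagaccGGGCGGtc
APOC3, before the start, chr9:44210971-44211170, plus strand: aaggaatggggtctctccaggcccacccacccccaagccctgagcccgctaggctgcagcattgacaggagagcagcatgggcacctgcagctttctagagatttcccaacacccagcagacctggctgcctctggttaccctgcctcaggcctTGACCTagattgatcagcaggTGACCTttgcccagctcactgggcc
APOA5, before the start, chr9:44180881-44181080, minus strand: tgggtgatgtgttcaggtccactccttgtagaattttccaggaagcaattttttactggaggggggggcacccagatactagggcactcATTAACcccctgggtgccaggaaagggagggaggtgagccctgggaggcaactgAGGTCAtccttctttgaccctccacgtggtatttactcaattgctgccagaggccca
APOA2, before the start, chr4:89237314-89237513, plus strand: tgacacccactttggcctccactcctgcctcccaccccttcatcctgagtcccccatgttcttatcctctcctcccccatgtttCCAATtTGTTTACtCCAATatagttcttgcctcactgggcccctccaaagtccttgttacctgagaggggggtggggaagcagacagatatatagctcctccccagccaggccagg
APOH, before the start, chr12:12839173-12839372, minus strand: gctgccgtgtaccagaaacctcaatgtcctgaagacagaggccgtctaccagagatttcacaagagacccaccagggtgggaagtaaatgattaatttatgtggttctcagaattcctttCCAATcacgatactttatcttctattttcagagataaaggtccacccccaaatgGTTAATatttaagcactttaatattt
Region downstream of APOA4, chr9:44199735-44199884, minus strand: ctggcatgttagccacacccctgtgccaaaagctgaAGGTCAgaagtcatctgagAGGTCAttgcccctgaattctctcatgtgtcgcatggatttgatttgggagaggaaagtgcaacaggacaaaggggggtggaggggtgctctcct
Region upstream of APOA2, chr4:89236865-89237014, plus strand: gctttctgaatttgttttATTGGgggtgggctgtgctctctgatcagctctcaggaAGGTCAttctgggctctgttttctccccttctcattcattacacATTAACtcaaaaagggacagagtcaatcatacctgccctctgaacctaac
Intron of APOB, chr3:117265271-117265420, plus strand: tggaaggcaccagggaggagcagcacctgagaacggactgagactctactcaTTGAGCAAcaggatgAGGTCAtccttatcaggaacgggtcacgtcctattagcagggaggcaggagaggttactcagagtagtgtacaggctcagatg

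Promoters of all 9 genes held a peak in each of the 3 liver lists. In newborn kidney 7 of 9 did, in heart, lung and spleen 4 of 9 each, and in muscle 2 of 9. A promoter peak is common among PCGs, since 73.6% of them had one in newborn liver, 74.9% in suckling liver, 69.7% in adult liver, 68.0% in heart, 75.2% in kidney, 70.5% in lung, 61.5% in muscle and 68.8% in spleen. The full count in liver was therefore above a high background, and the counts in heart, lung, muscle and spleen were below it. With the 57126 strongest peaks of every list, newborn liver had 6 of 9, near the 57.7% of PCGs called there. Suckling liver then had 8 (59.1% of PCGs) and adult liver 9 (58.1%). Kidney had 3 (60.3%), heart 4 (62.8%), lung 4 (61.7%), spleen 3 (60.2%) and muscle 2 (61.5%). APOA2 and APOM contributed to every list through a neighbour. The peak in the APOA2 window had its summit nearest to the start of TOMM40L, a relative of a mitochondrial import channel gene, read from the opposite strand, and the one upstream of APOM lay at the start of BAG6, a chaperone gene also read from the opposite strand. With peaks nearest to their own starts only, a setting added after the values were seen, all 9 members were still called at the 3 liver ages. The number then became 6 in kidney, 2 each in heart, lung and spleen, and 0 in muscle. Under that setting 67.6%, 69.1% and 63.7% of PCGs were called at the successive liver ages, 69.0% in kidney, 61.7% in heart, 64.2% in lung, 62.7% in spleen and 55.4% in muscle. APOA1 was called in heart, kidney, lung and spleen, APOE in heart, kidney and spleen, APOB in kidney and lung, and APOC3, APOA4 and APOM in kidney.

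**Figure D1:**
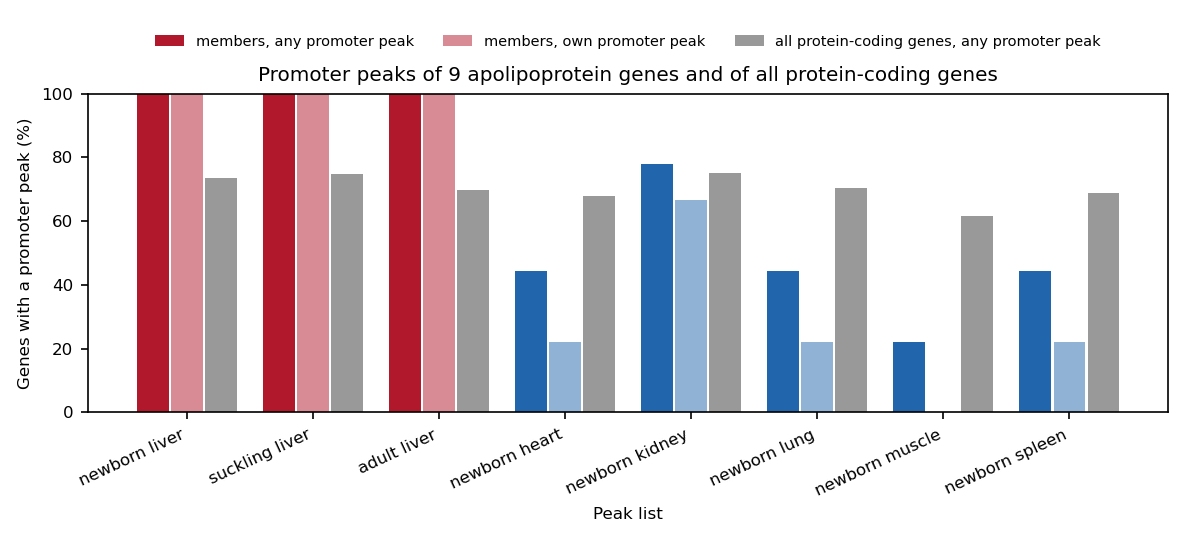
Share of genes with a promoter peak (y axis, %) in each of the 8 peak lists (x axis). Saturated bars give the 9 apolipoprotein genes with any promoter peak, pale bars the same genes with a peak nearest to their own start, and grey bars all 19535 PCGs. Liver lists are red and other newborn tissues blue; the members reach 9 of 9 only in the 3 liver lists and their own peaks number 0 in muscle.

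Newborn liver peaks that overlapped no peak of the other 5 newborn tissues were found in the promoters of 8 of the 9 members, and 6.43% of all PCGs had such a peak. APOA1 was the exception, because its start was also accessible in 4 other newborn tissues. These peaks differed in strength. At APOC3 (summit at −633 bp from the annotated start), APOA5 (−286 bp) and APOA2 (−525 bp) both replicates lay between the 77.6 and 88.0 percentiles. At APOH (−92 bp), APOM (−59 bp from its reviewed start) and APOE (−886 bp) replicate 1 lay at 65.2 to 79.4 and replicate 2 at 37.1 to 42.2. At APOA4 (204 bp) and APOB (429 bp) the peaks were weak, with an IDR of 0.603 at both and percentiles of 5.43 and 33.3 for APOA4 and 38.7 and 14.5 for APOB. With the 57126 strongest peaks of every list, APOC3, APOA5 and APOA2 were the 3 members left, and the share of all PCGs became 3.78%. Ranked without replicate 1 the same 3 genes were left, and without replicate 2 there were 6.

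To compare tissues, the strongest promoter peak of each gene was given its percentile in each list, with 0 where none was called, and the 3 liver lists were set against the 5 others. APOA5 stood at 79.7, 93.0 and 87.4 in newborn, suckling and adult liver and was not called elsewhere. APOH stood at 44.5, 64.9 and 77.4 and was likewise called in liver only. APOC3 stood at 85.0, 86.4 and 88.6, above the 52.1 of kidney, its only other list. APOA1 stood at 89.6, 92.4 and 87.7, above 82.0 in kidney, 78.9 in spleen, 66.2 in heart and 43.3 in lung. APOB stood at 92.3, 87.1 and 89.5, above 81.6 in kidney and 47.3 in lung. Its liver values come from a predicted start inside the gene, where the newborn liver summit lay 941 bp downstream. Heart and spleen had peaks at that place that began beyond the 500 bp promoter limit and so counted as 0. With 1 promoter per gene, at the annotated 5′ end, APOB no longer stood above all others. Its difference was then 17.8 points (exact permutation p = 0.429). For these 5 genes the liver and non-liver values of the lists, which take the lower replicate, did not overlap. Among the 16225 PCGs with a promoter peak in any list, 5.60% had liver values above all 5 others. Ranked without replicate 1, only APOA5 and APOB of the 9 did (3.10% of genes), and without replicate 2 APOC3, APOA5, APOB, APOE and APOH did. By single libraries, a comparison added after the values were seen, the 6 liver libraries stood above the 10 others for APOA5, APOB and APOH, as for 2.26% of genes. APOA1 overlapped there, with 87.8 in 1 kidney library against 83.7 in the lowest liver library, and APOC3 did so narrowly, with 74.2 in kidney against 73.7 in liver.

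APOE overlapped, if barely, with 52.6 in newborn liver and the same 52.6 in kidney, against 91.1 and 87.1 in suckling and adult liver. Its called values belong to peaks with summits at −2284 to −3048 bp, past the 2.2 kb promoter limit, whose edges reach into the promoter. APOA4 stood at 10.8 and 15.0 in newborn and suckling liver, below the 46.3 of kidney, and at 65.6 in adult liver. APOA2 and APOM, whose values in most lists belong to the shared peaks at TOMM40L and BAG6, stood at 89.4 to 94.8 and 49.1 to 91.3 in liver and reached 98.9 and 95.4 elsewhere. With own peaks only, both had liver values above all others, with liver minus other at 85.3 points for APOA2 and 63.9 points for APOM. Over the 9 members the median difference between the liver mean and the other mean was 51.3 points, and over all genes tested it was 2.86 points.

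Differences were tested by an exact two-sided permutation test over the 8 lists, whose 56 groupings allow no p below 0.0357. APOA5 differed by 86.7 points, APOC3 by 76.2, APOB by 63.8, APOH by 62.3 and APOA1 by 35.8, each with p = 0.0357 by the exact permutation test and 0.531 after Benjamini-Hochberg adjustment over all genes tested. APOE differed by 51.3 points (exact permutation p = 0.0714, adjusted 0.615). APOA4 gave 21.2 points (exact permutation p = 0.25), APOA2 24.5 (p = 0.714) and APOM −8.99 (p = 0.571). In all, 1092 genes reached the smallest p, and 0 passed an adjusted 0.05. The liver lists differ in age and are not replicates of 1 condition, and the newborn lists share animals, so the test describes these lists.

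**Figure D2:**
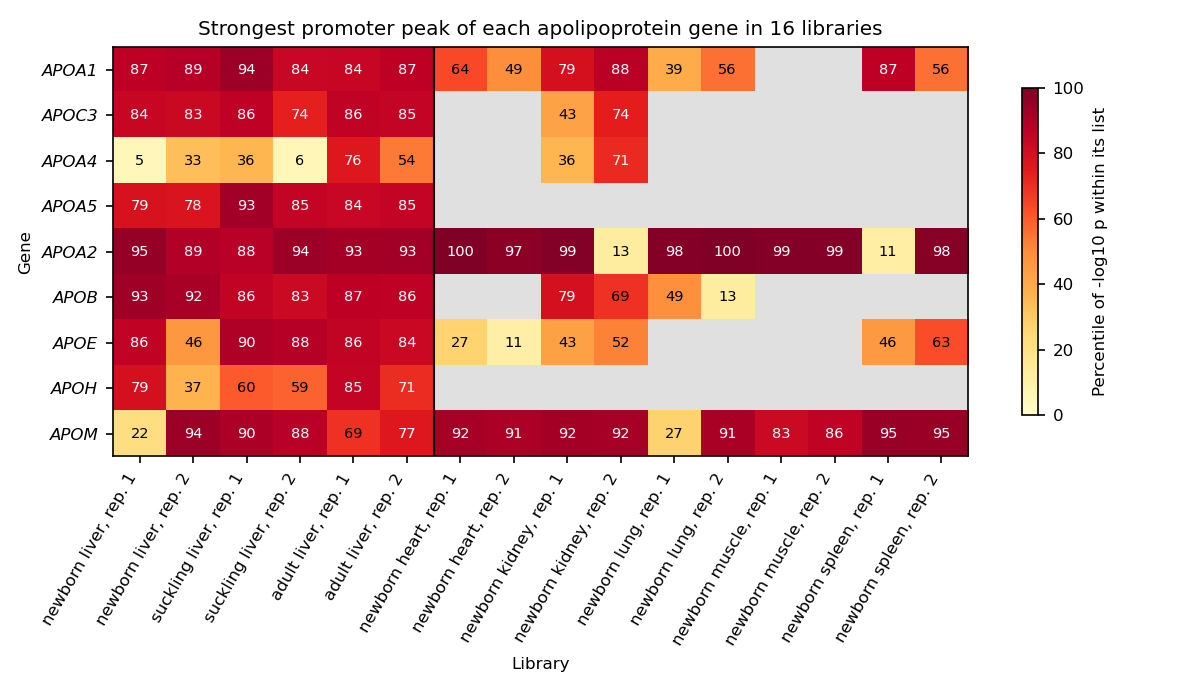
Percentile of −log10 p within its list (colour and printed value, 0 to 100) of the strongest promoter peak of each of the 9 genes (rows) in the 16 libraries (columns), with liver left of the line. Grey marks genes with no promoter peak called. APOA5 and APOH are filled in the 6 liver libraries only, whereas APOA2 and APOM are filled throughout by peaks shared with TOMM40L and BAG6.

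The genes with the most similar pattern over the 16 libraries, by the mean absolute difference of percentiles, were TBC1D14 for APOA5 (0.740 points), VPS41 for APOH (1.54 points), LBP for APOC3 (1.87 points), CETN3 for APOA2 (3.47 points) and PALM3 for APOB (5.23 points). APOM was closest to DNPH1 (6.75 points), APOA4 to HOXD9 (7.11 points), APOA1 to EVA1B (7.28 points) and APOE to CYP26A1 (7.63 points). A library without a call in either gene adds no difference, so shared absent calls make these values smaller. APOA5, APOH and their matches TBC1D14 and VPS41 were called in liver libraries only. The matches of APOA2 and APOM rest on the peaks shared with TOMM40L and BAG6, which give all APOA2 values and most APOM values. LBP encodes a lipopolysaccharide-binding plasma protein made by the liver.

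Merging the 220 peaks of all lists at the 6 loci where they overlapped gave 72 regions. Of these, 45 were called in liver and in no other tissue, 14 in liver and some other tissues, 5 in all 8 lists and 8 in other tissues alone. Across the genome, 25.6% of 288665 regions were called in liver alone, so 45 of 72 was above that share. At all 3 ages and in no other tissue there were 18 of the 72, against 4.66% of all regions. Ranked without replicate 1 these were 5 of 38 regions (3.36% of all regions), and without replicate 2 they were 11 of 41 (3.97%). The regions in all 8 lists were near their background of 6.55%. Liver-only regions had their summit in an intron in 22 cases, between genes in 10, in a coding exon in 7 and in an untranslated or long non-coding RNA exon in 6. Of the 14 regions shared with some other tissues, 9 were called in kidney, 7 in spleen, 4 each in heart and lung and 1 in muscle. Across the genome 66.6% of such regions were called in kidney, 44.7% in spleen, 32.8% in heart, 37.8% in lung and 17.5% in muscle, so the counts at the loci were near those shares. The kidney list was the longest of the other 5, and with equal lists kidney had 5 of 12 such regions (background 55.8%). The kidney list was longer than those of newborn and adult liver and held 21 peaks at the loci against 42 and 57.

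The genes APOA5, APOA4, APOC3 and APOA1 lie within 50.5 kb of chromosome 9 when the flanks are counted. Peaks covered 11.5% of this window in newborn liver, 16.3% in suckling liver, 18.3% in adult liver, 6.82% in kidney and 3.12% to 4.97% in heart, lung, muscle and spleen. Genome-wide coverage was 1.35% to 2.71% of the lists' chromosomes. The window held 21 regions, with 11 in liver alone and 6 of them at all ages. APOA5 (chr9:44177834-44180880, minus strand) had 3 liver-only regions called at all 3 ages. The strongest of the 3, at chr9:44180666-44181416, was intergenic with its adult summit at −302 bp. Its −log10 p was 99.4 and 18.9 in the newborn replicates, 38.6 and 36.5 in the suckling and 111 and 118 in the adult ones, and both adult and both suckling libraries ranked above both newborn ones. The bases shown above for APOA5 lie within it. The others were at 804 bp, in a coding exon, and at 2660 bp, in an untranslated exon that also lies in the promoter of ZPR1.

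Between APOA5 and APOA4 the lists of heart, kidney, lung, muscle and spleen had no peak. Liver had 6 regions there, and the 2 called at all ages had the highest percentiles. The region chr9:44194013-44195290 lay over the first exon of LOC106504887, a long non-coding RNA gene read from the opposite strand of APOA4. Its −log10 p was 217 and 5.99 in the newborn replicates, 8.10 and 14.9 in the suckling ones and 147 and 104 in the adult ones, so the newborn replicates were far apart. The other, chr9:44199339-44200102, lay in the next exon of that gene at 4262 bp from the start of APOA4. It had the highest values of the cluster in suckling and adult liver. In newborn liver a region at −2864 bp from that start was higher, with 182 and 56.4. The exonic region had −log10 p of 165 and 55.7 in newborn, 61.9 and 49.4 in suckling and 228 and 153 in adult liver. Its lowest percentile in the 6 libraries was 87.7. The bases shown around its summit hold AGGTCA at 2 places.

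APOA4 (chr9:44201587-44204072, minus strand) shared its start region with kidney. In adult liver the peak had its summit at −320 bp and −log10 p of 69.8 and 29.9, and the kidney peak (6.56 and 17.8) had its summit at −323 bp. Newborn and suckling liver peaks had their summits inside the gene, at 204 and 135 bp, although the suckling peak was wide and reached upstream over the adult summit. Their −log10 p lay between 4.02 and 6.42. Both adult libraries ranked above the other 4 liver libraries here, at the 76.3 and 53.8 percentiles against 5.43 to 36.2. A region at −2864 bp, chr9:44206676-44207151, was also shared with kidney and no other tissue. It reached the 89.4 and 95.3 percentiles in newborn liver, 75.1 and 73.9 in suckling, 88.1 and 84.2 in adult liver and 78.6 and 92.0 in kidney.

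APOC3 (chr9:44211171-44213538, plus strand) had a region over its annotated start, chr9:44210395-44211582, in the 3 liver lists and kidney. Newborn and adult liver had a pair of peaks within it. By the weaker replicate, the strongest had −log10 p of 134 and 24.5 in newborn, 24.6 and 22.8 in suckling and 128 and 120 in adult liver, and 7.25 and 19.5 in kidney. Its adult summit was 4 bp from the predicted start, and AGGTCA matches lay at −46 and −25 bp on the minus strand. The reviewed transcript of APOC3 starts at position 44211902, outside this region. A liver-only region downstream at chr9:44213944-44214956 was called in suckling and adult liver. APOA1 (chr9:44216481-44218360, minus strand) had its start region in 7 of 8 lists, missing in muscle. The −log10 p was 158 and 32.5 in newborn, 42.4 and 34.5 in suckling and 113 and 130 in adult liver, then 16.9 and 35.8 in kidney, 35.7 and 18.5 in spleen, 13.1 and 9.82 in heart and 5.32 and 26.7 in lung. Summits were at −5 to −71 bp in liver, heart and kidney, and at −371 and −303 bp in lung and spleen. Upstream, kidney had 2 regions of its own, and a liver-only region at −3326 bp was called at all ages.

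**Figure D3:**
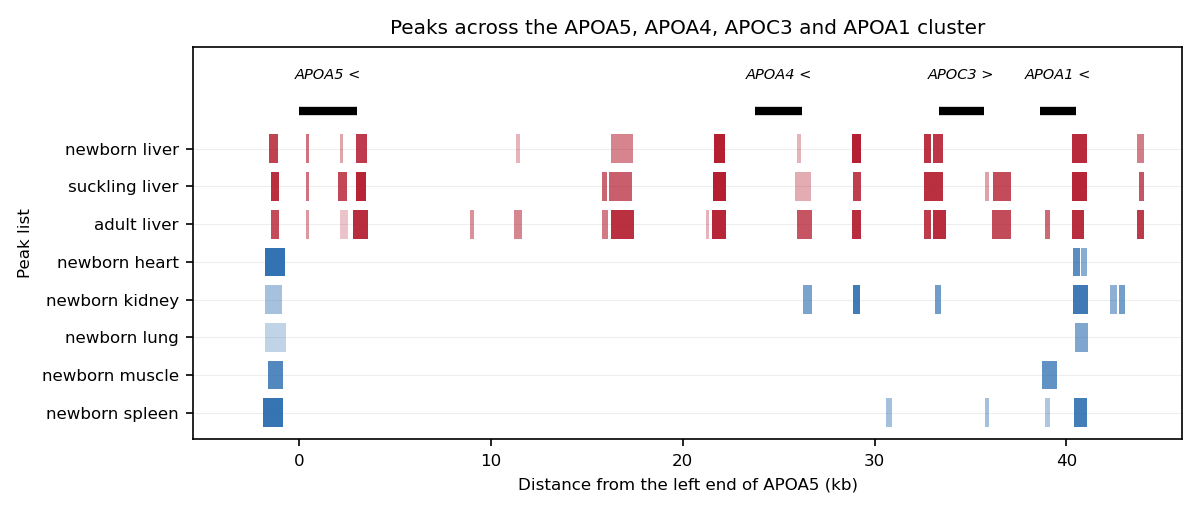
Peaks of the 8 lists (rows) across the cluster, with distance in kb from the left end of APOA5 on the x axis. Black bars are genes with their reading direction, red boxes liver peaks and blue boxes other tissues, and darker boxes have a higher percentile within their list. Between APOA5 and APOA4 boxes appear in liver rows only.

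APOA2 (chr4:89237514-89239126, plus strand) had 2 liver-only regions before its start. The first, chr4:89236629-89237157 with the adult summit at −574 bp, was called at all ages with −log10 p of 142 and 31.4 in newborn, 21.6 and 26.7 in suckling and 120 and 76.5 in adult liver. The second, chr4:89237299-89237703 at −82 bp, was called in newborn (39.8 and 8.07) and adult liver (9.36 and 25.8) and not in the suckling list. FOXA, HNF1 and AGGTCA words lie in the bases shown for these regions.

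APOB (chr3:117250096-117316200, plus strand) spans 66105 bp and had the most regions, 30, of which 23 were liver-only and 7 of those at all ages. Coverage of its window was 9.86% in newborn liver, 11.8% in suckling liver, 15.3% in adult liver and 0% to 2.78% in the other tissues, with no peak in muscle. The strongest, chr3:117265134-117265534 in an intron at 15250 bp, had −log10 p of 265 and 52.9 in newborn, 46.9 and 51.5 in suckling and 241 and 253 in adult liver. All 6 libraries ranked between the 90.7 and 96.8 percentiles. Further liver-only intronic regions were at 4165 bp (222 and 27.2, 11.7 and 21.6, and 189 and 104 at the 3 ages) and at 610 bp, where the highest −log10 p was 15.6. Another lay at −4700 bp on the first exon of LOC110260049, a long non-coding RNA gene read away from APOB. A predicted transcript starts inside the gene, and there a region of 1478 bp was called at all ages and in heart, kidney, lung and spleen. Its liver peaks had −log10 p of 239 and 39.8, 23.7 and 33.6, and 134 and 127. Kidney also had a region of its own at −1576 bp with −log10 p of 16.8 and 16.5. Of the 12 regions seen in adult liver alone among the ages, 9 were at APOB.

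APOH (chr12:12827195-12839172, minus strand) had no peak in heart, kidney, muscle or spleen. Its start region, chr12:12838569-12839534, was liver-only with −log10 p of 103 and 6.78 in newborn, 9.43 and 14.0 in suckling and 120 and 59.5 in adult liver. A region at 1258 bp was liver-only at all ages as well, and both newborn libraries (73.2 and 79.6) ranked above the other 4 there. Lung shared the region beyond the gene's end and had 1 of its own upstream.

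APOM (chr7:23768974-23773324, plus strand) and APOE (chr6:51373113-51375333, plus strand) lie in windows whose widest peaks were called in every tissue. At APOM, 2 of 3 regions were in all 8 lists. The remaining one, chr7:23770635-23770929 at −59 bp from the reviewed start, was liver-only with −log10 p of 88.3 and 7.45, 11.8 and 11.9, and 46.3 and 78.4 in newborn, suckling and adult liver. At APOE no list had a peak over the annotated start, and the RefSeq model of this gene is marked as incomplete. The liver-only region there, chr6:51371941-51372453, had its adult summit at −856 bp and −log10 p of 49.4 and 7.44, 9.64 and 4.54, and 8.48 and 36.6. The wider region upstream that gave its strongest promoter peak was shared with heart, kidney and spleen, and another at 5146 bp was in all 8 lists. Macrophage markers were checked because these cells make APOE. All 5 (CSF1R, SPI1, CD68, ADGRE1 and CD14) had a promoter peak at each liver age and in spleen, against 1 or 2 in heart, kidney, lung and muscle. Among all PCGs 69.7% to 74.9% were called in liver and 61.5% to 75.2% elsewhere. In adult liver CD68 (7.91), ADGRE1 (9.46), CSF1R (16.5) and SPI1 (33.2) had low percentiles, and CD14 stood at 93.7. CSF1R and ADGRE1 were called in liver and spleen only, whereas CD14 was called in all 8 lists and CD68 reached 70.3 in kidney. APOE itself also had a promoter peak in heart and kidney, the strongest with summits at −2408 and −2284 bp. The part of these markers in the APOE result was not tested. Among 5 erythroid markers, 4 had a promoter called in newborn liver, 2 in suckling liver and 1 in adult liver, and KLF1 was called in spleen only. All 5 were called in spleen and 2 in kidney. Of the newborn liver calls, GATA1 and ALAS2 were weak, at the 3.48 and 5.88 percentiles. GATA1 stood higher in suckling liver (15.2), and EPOR was called in every list but muscle. ATAC-seq on whole tissue cannot tell fewer cells of a type from less open chromatin per cell.

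**Figure D4:**
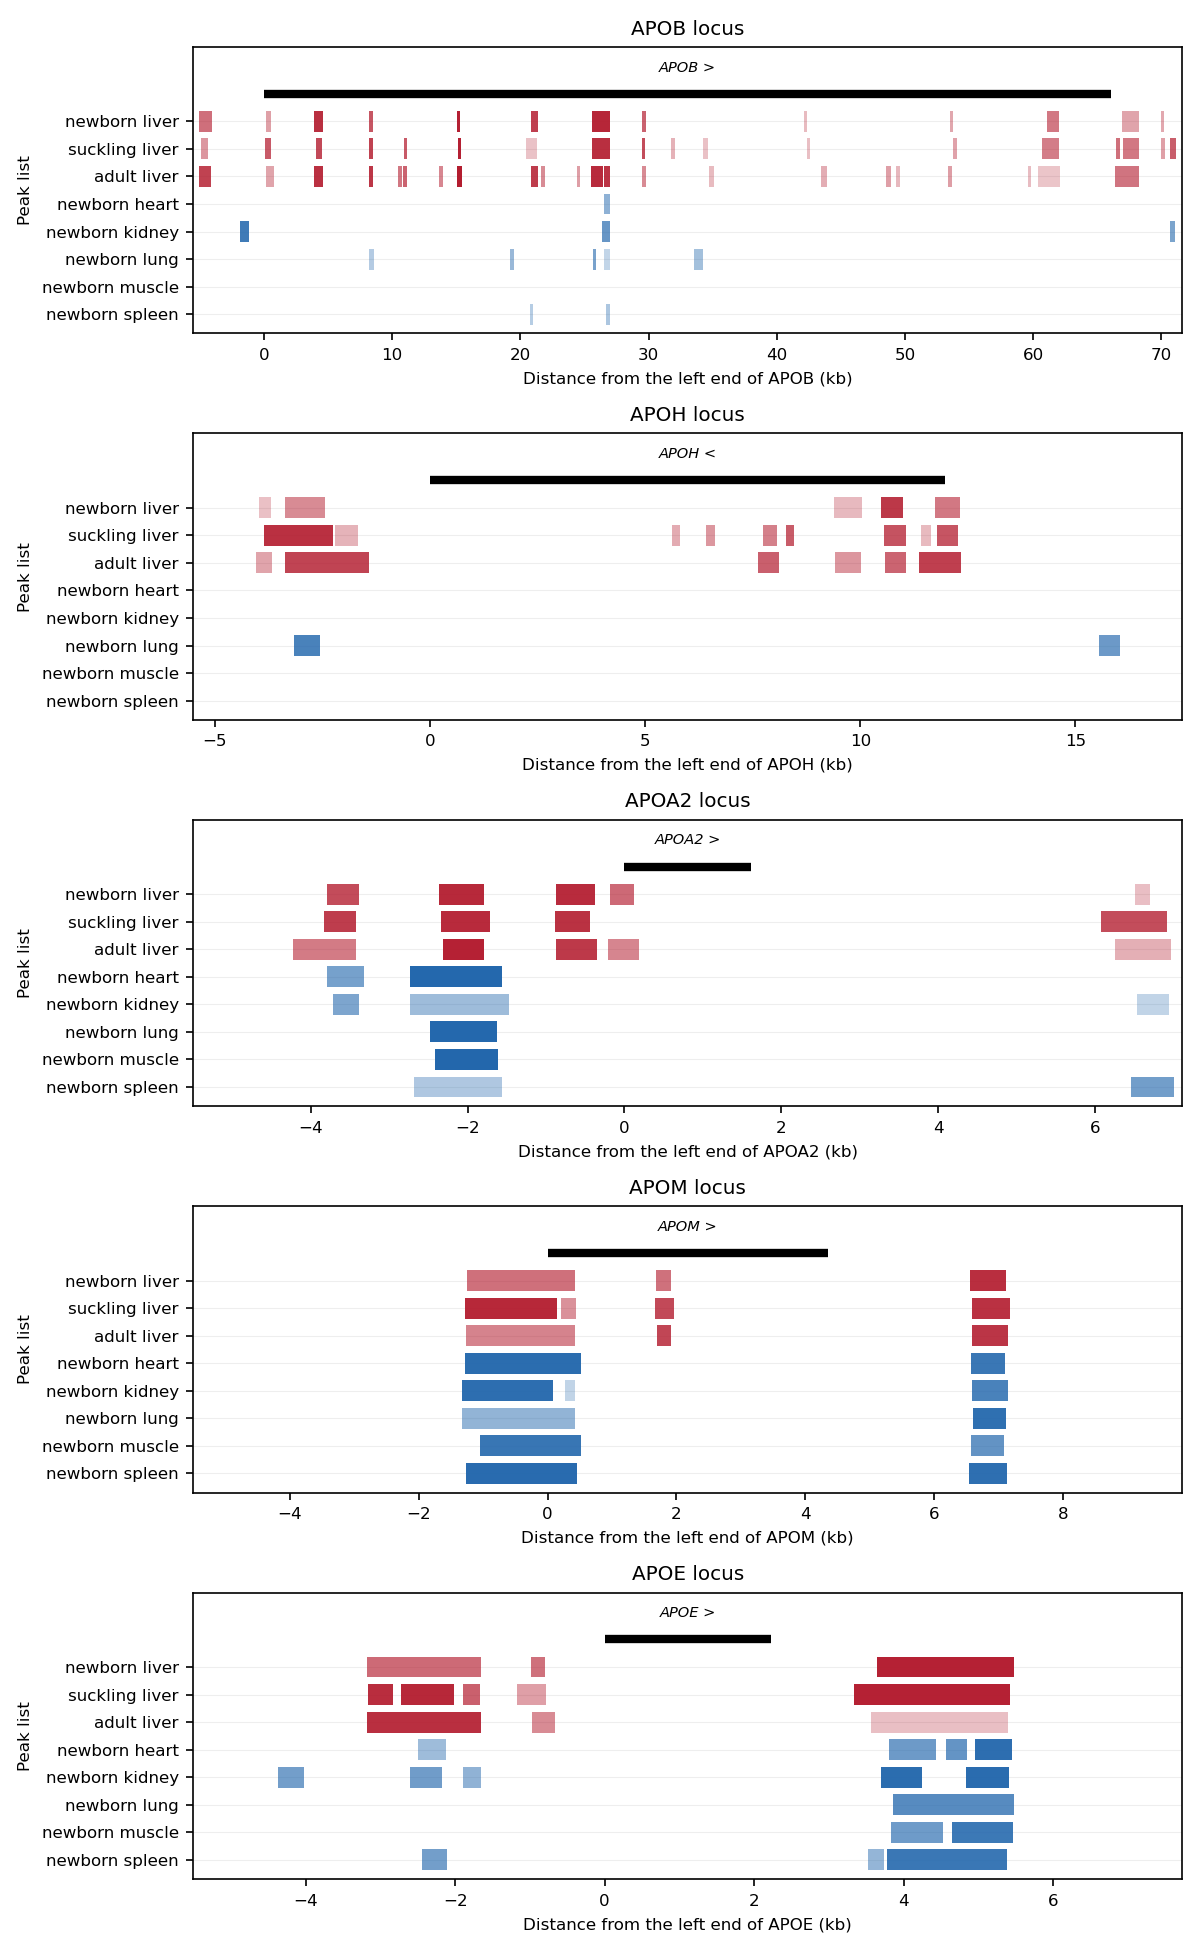
Peaks of the 8 lists (rows) at APOB, APOH, APOA2, APOM and APOE, each with distance in kb from the left end of the gene on the x axis. Black bars are genes, red boxes liver and blue boxes other tissues, and darker boxes have a higher percentile. APOB and APOH have few or no blue boxes, whereas boxes before APOM, APOA2 and after APOE run through all rows.

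Of the 64 regions called at any liver age, 34 were called at all 3, 10 at 2 and 20 at 1. That is 53.1% at all ages, against 38.3% of all liver regions. Newborn liver alone accounted for 0 (background 11.2%), suckling liver alone for 8 (12.5%, background 20.0%) and adult liver alone for 12 (18.8%, background 11.3%). Regions of 1 age were weak. Their median percentile was 21.1 and 1 of 20 had an IDR of 0.05 or lower, whereas regions of all ages had a median of 74.0 and 56.9% of their peaks met that limit. Among the 34, both newborn libraries ranked above the other 4 in 3 regions, against 5.66% of all regions called at all ages. For suckling liver it was 8 regions (background 22.8%) and for adult liver 3 (background 7.25%). These counts were near the background in each case. No test between ages was run. Ranked without replicate 1, regions called at all ages were 14 of 33 (background 35.8%), those of newborn liver alone 1 (12.9%), of suckling liver alone 3 (7.23%) and of adult liver alone 9 (16.01%). Ranked without replicate 2 they were 19 of 38 (34.8%), 1 (12.5%), 4 (15.4%) and 5 (13.5%), so adult liver alone was then near its background.

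**Figure D5:**
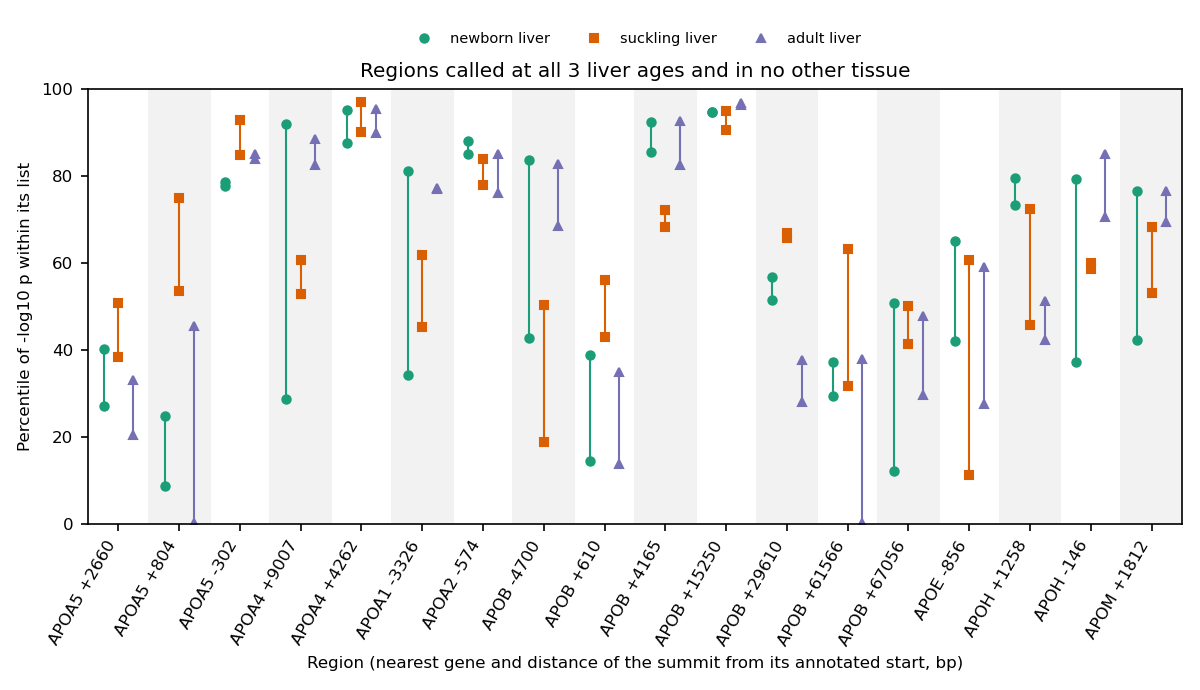
Percentile of −log10 p within its list (y axis) for the 18 regions called at all 3 liver ages and in no other tissue (x axis, nearest gene and distance of the summit from its annotated start in bp). Symbols are single replicates, joined within an age. The intronic APOB region at 15250 bp and the region at 4262 bp from APOA4 stay above 87 in all 6 libraries, whereas several newborn pairs are far apart.

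Promoters of the 9 genes, taken from 250 bases before to 50 after the annotated start, were poor in CpG. Their observed over expected ratio had a median of 0.228 (0 to 0.758), against 0.65 over all PCGs, and 8 of 9 were below that median. GC content was 55.3% in the median member and 58.7% over all genes. The SP1 word was in 1 of 9, where 50.6% of all promoters have it, and CCAAT was in 5 of 9 (background 35.4%). TATAAA was in 3 of 9 (10.9%), HNF1 in 2 (6.45%), AGGTCA in 2 (14.1%), FOXA in 1 (2.65%), CEBP in 1 (9.44%), and HNF4 and ONECUT in 0 (0.676% and 1.41%). The TATAAA matches began at 27 bp in APOC3, 10 bp in APOA5 and −232 bp in APOM, so those of APOC3 and APOA5 lay after the start. The CEBP match, in APOA2, began at 5 bp. In the 300 bases around the summits of the 18 liver-only regions, AGGTCA was in 5 and CCAAT in 9, with HNF1 and TATAAA in 2, CEBP in 1, SP1 in 3 and FOXA, HNF4 and ONECUT in 0. Among all 13442 regions of this class the shares, in the same order, were 37.3%, 35.9%, 11.6%, 13.4%, 23.4%, 8.52%, 9.91%, 4.23% and 7.05%. A match is a description of letters and not a site.

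Other genes of lipoprotein metabolism were counted in the same way. Promoter peaks were called for 24 of 27 enzymes, receptors and transfer proteins in newborn and in suckling liver and for 23 in adult liver, against 16 (muscle) to 22 (kidney and spleen) elsewhere. Among all PCGs 69.7% to 74.9% were called in liver and 61.5% to 75.2% elsewhere, so outside liver the list lay about at those shares. A newborn liver-specific promoter peak was found for 6 of 27, and 6 of 27 had liver values above all others. MTTP, which loads lipid onto APOB, was called in the 3 liver lists alone, at the 77.5, 79.9 and 92.6 percentiles. Lipoprotein lipase (LPL), which hydrolyses the triglyceride of lipoproteins and is named here after its values were seen, was called in heart (89.3), muscle (90.8), kidney (50.6) and spleen (22.7), and at no liver age. Of 9 other apolipoproteins 6 were annotated, and 6, 6 and 5 of them were called at the liver ages and 3 or 4 elsewhere. APOC2 (53.6, 63.0 and 54.3) and APOF (68.5, 73.6 and 74.1) were called in liver only, and 4 of the 6 had liver values above all others.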

How the data were processed

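ATAC-seq of 16 libraries was analysed from the 8 deposited peak lists. The authors aligned reads to Sscrofa11.1 with Bowtie2, filtered them with SAMtools 1.3.1, called peaks per replicate with MACS2 and joined replicates by IDR. Deposited values are a −log10 p for each replicate, with the lower value given again for the pair. The authors' score scales the IDR, so that 540 or more means 0.05 or lower, and the lists also hold peaks above that IDR. The deposited files give no read counts, the study's read totals per library were not used here, and no detection limit was computed. Groups came from the labels, and nothing there says that a replicate number marks an animal, so p-values measure only the spread between these lists.

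Genes and starts came from the RefSeq annotation of the same build. Peaks were overlapped by 1 bp, positions count from 1, and the cluster was searched as 1 window from its first to its last gene. Distances are from the annotated 5′ end unless a reviewed start is named. Percentiles are ranks of −log10 p in a list, by the lower replicate where a list has 1 value. All PCGs with a promoter peak were tested with the exact permutation test and Benjamini-Hochberg adjustment, by code tested on simulated data. Python 3.11.15 with NumPy 2.4.6, pandas 2.3.3, SciPy 1.17.1 and matplotlib 3.10.9 was used. Named genes were the 9 members, listed pathway genes called in the 3 liver lists alone or in none, and the gene most alike each member. An item is not reported here. Members, lists and words were chosen with earlier results of these data known. Alternatives were an IDR limit, equal list lengths, each replicate left out, other promoter and flank sizes, a stricter overlap, own promoter peaks only and the mean of the 2 replicate percentiles.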

Additional observations from a re-analysis of the deposited data

How the results depend on the processing

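Results were recomputed with peaks of IDR 0.05 or lower, with the 57126 strongest peaks of every list, with either replicate left out of that ranking, with a narrower promoter (1 kb and 100 bp), with 1 promoter per gene, with a stricter overlap, with flanks of 10 kb or none and, chosen after seeing the data, with own promoter peaks only. Members with a promoter peak stayed at 9 in adult liver and at 7 to 9 in suckling liver. With the IDR limit they numbered 5 in newborn liver (44.1% of PCGs) and 2 in heart (38.8%). That limit gave 3 in kidney (56.2%), 1 in lung (40.7%) and 1 in spleen (43.0%). Equal lists gave 6 in newborn liver (57.7%) and 3 in kidney (60.3%). The narrower promoter gave 2 in heart (64.0%), 4 in kidney (70.4%), 1 in muscle (58.1%) and 2 in spleen (65.3%). Own peaks gave 2 in heart (61.7%), 2 in lung (64.2%), 0 in muscle (55.4%) and 2 in spleen (62.7%). Newborn liver-specific promoters numbered 4 with the IDR limit and 3 with equal lists, when 2.61% and 3.78% of all PCGs had one. In that order, regions numbered 34 and 39, liver-only regions 26 and 24, those at all ages in liver only 7 and 8, and those at all ages 12 and 15. Of 33 liver regions with the IDR limit, suckling liver alone had 5 (15.2%, background 17.7%) and adult liver alone 10 (30.3%, background 27.6%). Of 37 with equal lists, newborn liver alone had 1 (2.70%, background 13.1%). Suckling liver alone then had 6 (16.2%, background 9.97%) and adult liver alone 5 (13.5%, background 16.6%). With equal lists the suckling share was thus above its background and the adult share below it, the reverse of the full lists.

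With a replicate left out, kidney promoters numbered 4 to 6, against 62.1% to 64.0% of PCGs. Newborn liver-specific promoters then numbered 3 to 6 (3.52% to 4.68% of PCGs). Members with liver above all others numbered 2 to 5 (3.10% to 3.29% of genes tested). Regions numbered 38 to 41, liver-only regions 18 to 25, those at all ages in liver only 5 to 11 and those at all ages 14 to 19. Newborn liver alone had 1 region in either case, suckling liver alone 3 to 4 and adult liver alone 5 to 9. The cause was not tested, beyond the smaller number of peaks that these settings keep. With the mean of the 2 replicate percentiles in place of the value by the lower replicate, 6 members had liver above all others (6.42% of genes tested). Differences between replicates 1 and 2 correlated at −0.0908 to 0.204 over 28 pairs of lists, with 3 over 0.1. These correlations cannot show whether a number marks the same animal across tissues, and some pairs join liver lists of different ages. Because the labels do not say so either, the numbers were not treated as pairs. By single libraries, also chosen after seeing the data, 3 members had liver above all others. Weak peaks and the lack of read counts per peak limit what can be said of single regions, and the absence of a peak is not a measured level.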
